A study of Mus musculus with 48 samples.

Results

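Haemoglobin RNA in the cerebral cortex of mice was described through 5 genes: the adult alpha globin genes Hba-a1 and Hba-a2, the adult beta globin genes Hbb-bs and Hbb-bt, and Alas2, which encodes the erythroid form of the first enzyme of haem synthesis. They were taken by gene symbol from the 48795 genes of the count and FPKM tables, and all 5 passed the filter on low counts, which kept 20010 genes. RNA came from the cortex of 48 mice of a C57BL/6 background at 6 months of age. The mice fell into 6 groups: 8 Q140 x Msh3-/-, 8 Q140 x Msh3+/-, 8 Q140, 8 Msh3-/-, 9 Msh3+/- and 7 wild type (WT). Q140 is a knock-in allele of the huntingtin gene Htt with an expanded CAG repeat, present here in heterozygous form, and serves as a model of Huntington's disease. Msh3 encodes a DNA mismatch repair protein. WT held 4 males and 3 females, Msh3+/- 4 males and 5 females, and every other group 4 of each sex.

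Adult haemoglobin is a tetramer of alpha and beta globin chains, each holding a haem group. Its genes are transcribed in red cell precursors of the bone marrow, and reticulocytes and young red cells in the circulation still carry the RNA after the nucleus is lost. Globin RNA in a brain extract can come from blood left in the vessels, and alpha and beta globin transcripts have also been described in neurons and glia of rodents. The labels do not say whether the mice were perfused before dissection. Alas2 is used in erythroid cells, whereas most other tissues use Alas1 for the same step. In bulk tissue, fewer cells of a type and less RNA per cell cannot be told apart.

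The globin genes of each kind lie as a pair of near copies. On GRCm38, Hba-a1 (ENSMUSG00000069919, chromosome 11, 32283511 to 32284465) and Hba-a2 (ENSMUSG00000069917, chromosome 11, 32296489 to 32297298) stand on the plus strand, and Hbb-bs (ENSMUSG00000052305, chromosome 7, 103826534 to 103828096) and Hbb-bt (ENSMUSG00000073940, chromosome 7, 103812524 to 103813996) on the minus strand. Alas2 (ENSMUSG00000025270) lies on the plus strand of chromosome X, 150547375 to 150570638. The 426 coding bases of Hba-a1 and Hba-a2 differed at 1 base, and the 441 coding bases of Hbb-bs and Hbb-bt likewise at 1, an identity of 99.8% in both pairs. The stretch around each difference is shown with the differing base in capitals, since it shows how little of the coding sequence can assign a read to 1 copy.
Hba-a1: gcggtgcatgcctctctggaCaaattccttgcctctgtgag
Hba-a2: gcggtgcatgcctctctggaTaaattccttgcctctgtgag
Hbb-bs: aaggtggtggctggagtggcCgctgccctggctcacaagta
Hbb-bt: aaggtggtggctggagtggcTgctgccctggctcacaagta
Counted from 1 at the first base of the start codon, the alpha difference is C381T from Hba-a1 to Hba-a2, and the beta difference is C417T from Hbb-bs to Hbb-bt. The shown stretches are chr11:32284323-32284363, chr11:32297140-32297180, chr7:103826672-103826712 and chr7:103812663-103812703. Of all stretches of 50 bases in the main transcript of each gene, the share found in no other gene was 32.5% for Hba-a1, 13.1% for Hba-a2, 34.2% for Hbb-bs, 41.7% for Hbb-bt and 100% for Alas2. The read length and the handling of reads that match both copies are not given in the sources used here. The split between the copies of a pair is therefore uncertain. The sum of a pair does not depend on that split, but it is too low if reads that match both copies were left out. The shares above differ between the genes, so the sums of the alpha and beta pairs could then be lowered unequally.

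The 250 bases before the starts of these genes in RefSeq (GRCm38.p6) are shown with 4 short words in capitals, searched on both strands. The word called GATA was AGATAA or TGATAA. The word called TATA was TATAAA or TATAAG. The other words were CACCC and, as the binding word of factors at many promoters, CCAAT. A word found on the other strand appears as its reverse complement. Hba-a1 is left out because it shares an unbroken run of 247 bases with Hba-a2.
Hba-a2: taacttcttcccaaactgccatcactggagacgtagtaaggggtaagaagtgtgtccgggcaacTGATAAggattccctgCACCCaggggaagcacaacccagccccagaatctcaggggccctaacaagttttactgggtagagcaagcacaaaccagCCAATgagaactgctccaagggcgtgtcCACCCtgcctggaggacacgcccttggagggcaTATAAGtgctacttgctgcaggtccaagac
Hbb-bs: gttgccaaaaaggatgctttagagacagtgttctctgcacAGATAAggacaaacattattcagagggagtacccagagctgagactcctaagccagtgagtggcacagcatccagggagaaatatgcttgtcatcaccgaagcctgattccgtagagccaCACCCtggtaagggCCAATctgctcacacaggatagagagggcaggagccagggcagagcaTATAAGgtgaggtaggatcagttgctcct
Hbb-bt: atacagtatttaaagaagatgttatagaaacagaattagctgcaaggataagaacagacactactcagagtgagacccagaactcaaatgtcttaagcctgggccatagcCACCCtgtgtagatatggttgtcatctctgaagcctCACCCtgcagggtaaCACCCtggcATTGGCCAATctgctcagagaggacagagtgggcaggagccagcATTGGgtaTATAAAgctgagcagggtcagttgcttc
Alas2: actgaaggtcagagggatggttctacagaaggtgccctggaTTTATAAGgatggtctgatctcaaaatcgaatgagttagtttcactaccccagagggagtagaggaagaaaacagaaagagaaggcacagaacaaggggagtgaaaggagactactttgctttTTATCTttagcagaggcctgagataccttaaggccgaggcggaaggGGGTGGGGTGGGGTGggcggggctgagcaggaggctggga
The windows are chr11:32296242-32296491 on the plus strand for Hba-a2, chr7:103827929-103828178 and chr7:103813924-103814173 on the minus strand for Hbb-bs and Hbb-bt, and chrX:150547167-150547416 on the plus strand for Alas2. Ensembl models of the same genes begin further upstream, inside these windows. The GATA words were found in Hba-a2, Hbb-bs and Alas2, and in 16.6% of the 32851 RefSeq promoters searched. CACCC was found in all 4 windows shown and in 52.0% of promoters, and CCAAT in the 3 globin windows and in 33.8%. A TATA word began 30 bases before the start in Hba-a2, 29 in Hbb-bs and 28 in Hbb-bt, and 17.0% of promoters held one anywhere in the window. In Alas2 overlapping TATA words on opposite strands lay 209 to 202 bases before the start. The windows of Hbb-bs and Hbb-bt were 69.3% identical. A match is a description of letters and not of a bound site, and its part in the levels of these genes was not tested.

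The libraries held 35.9 M to 64.5 M counted reads, with a mean of 46.5 M. The group names are those of the labels. Msh3 RNA was higher in mice with altered Msh3 alleles: it lay at 99.1 to 125 CPM (counts per M counted reads) in mice labelled Msh3-/- with or without Q140, at 61.2 to 77.4 CPM in mice labelled Msh3+/- with or without Q140, and at 21.8 to 25.9 CPM in Q140 and WT mice. These counts go against a reading of the labels as loss of Msh3 RNA and do not show whether protein is made. On the second principal component, 3 libraries stood apart (Q140 x Msh3-/- male 4, Q140 male 1 and Msh3+/- male 2). Their Hbb-bs levels of 4.52, 3.99 and 6.80 CPM lay inside the range of the other mice, and the counts of genes called were repeated without them. Cortical markers fitted the labelled tissue: Camk2a and Snap25, a kinase and a synaptic vesicle fusion protein of neurons, averaged 710 and 571 FPKM, the deposited level scaled by gene length and library total.

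Counted globin reads were scarce and differed widely in number between mice. Over all 48 libraries the 4 globin genes took 11323 of 2230 M reads, or 5.07 per M reads (unscaled library totals). On that scale the sum per mouse lay between 0.111 and 16.7 with a median of 4.58, a 151-fold range, and 14 mice lay below 2. Hbb-bs, the beta gene with more counted reads, gave 4 to 698 reads per library with a median of 129. Hba-a1 gave 0 to 228 reads with a median of 41, Hba-a2 1 to 82 with a median of 13.5, and Hbb-bt 0 to 70 with a median of 13. Alas2 gave 0 to 37 reads with a median of 3.5, and 24 of 48 mice had 3 or fewer.

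Per length, the order was the same. Hbb-bs averaged 4.29 ± 3.44 FPKM and Hba-a1 1.22 ± 0.989 FPKM (SD, n = 48). Hba-a2 followed with 0.588 ± 0.477 FPKM, Hbb-bt with 0.482 ± 0.391 and Alas2 with 0.0536 ± 0.0525 (SD, n = 48 each). The SD was close to the mean in every case. For Hba-a2 and Hbb-bt the difference in mean is smaller than the spread between mice, and both depend on how reads were shared with the near copy.

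A single mouse stood at each end of the range for most genes. WT male 3 had the highest value of all 5 genes, with 698 reads of Hbb-bs (10.7 CPM), 228 of Hba-a1, 82 of Hba-a2, 70 of Hbb-bt and 37 of Alas2, and it was also the deepest library. WT male 4 came next for Hbb-bs with 464 reads (8.94 CPM), ahead of Q140 x Msh3-/- female 1 at 8.15 CPM and Msh3+/- male 4 at 7.78 CPM. Msh3+/- female 3 was lowest, with 4 reads of Hbb-bs (0.0738 CPM), 1 each of Hba-a2 and Hbb-bt and 0 of Hba-a1 and Alas2 in a library of 54.1 M reads. A count of 0 in that library allows up to 0.0553 CPM. WT male 1 (0.148 CPM of Hbb-bs), Msh3-/- female 4 (0.187) and Msh3-/- female 2 (0.200) followed. High and low mice thus occurred within the same group and the same sex.

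The spread between mice exceeded counting error many times. Around a constant share of each library, chi-square over its 47 degrees of freedom was 104 for Hbb-bs, 32.2 for Hba-a1, 12.6 for Hba-a2, 10.8 for Hbb-bt and 6.15 for Alas2. The biological coefficient of variation that edgeR estimated within genotype and sex was 0.865 for Hbb-bs, 0.864 for Hba-a1, 0.817 for Hbb-bt, 0.745 for Hba-a2 and 0.711 for Alas2. Over all 20010 tested genes its median was 0.0858, and the 5 genes ranked 20, 21, 25, 32 and 33 from the top.

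**Figure D1:**
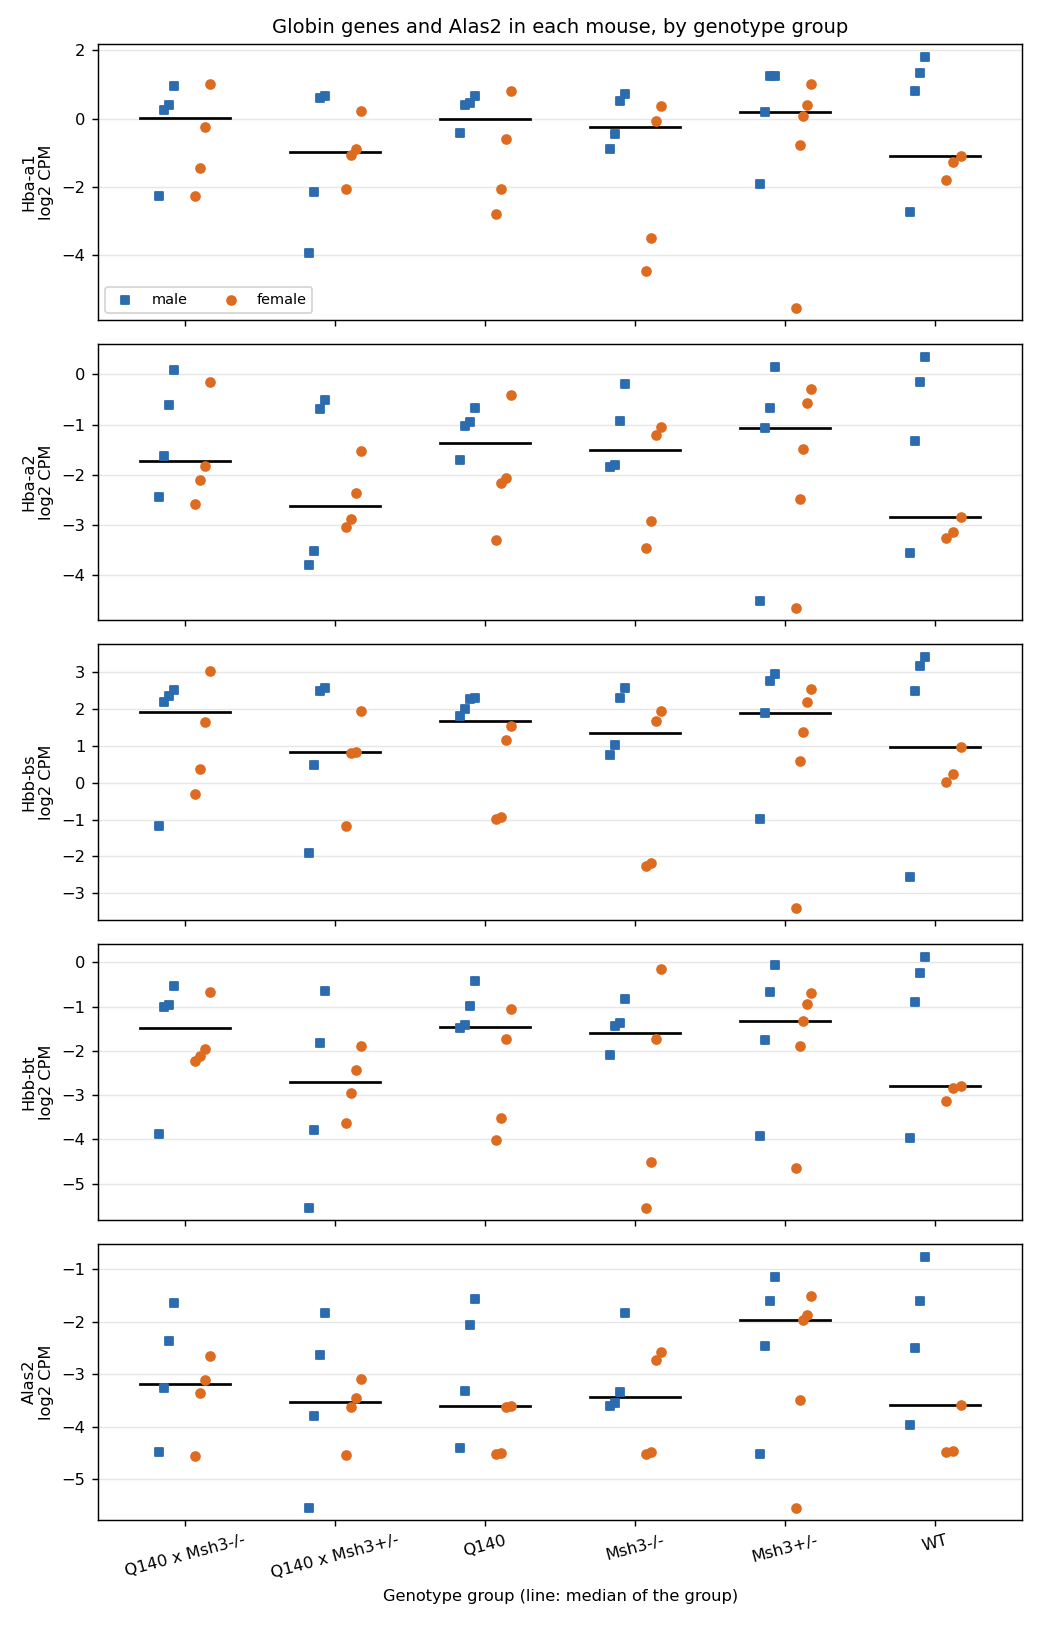
Level of each of the 5 genes in every mouse, as log2 CPM with a prior count of 1 (vertical axis of each panel), for the 6 genotype groups along the horizontal axis, with males as blue squares, females as orange circles and the group median as a line. High and low mice occur in every group and all group ranges overlap.

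The levels were set out by genotype to show whether the Htt expansion or the Msh3 alleles went with a change. Hbb-bs had a lowest, median and highest level of 0.421, 3.81 and 8.15 CPM in Q140 x Msh3-/- mice and of 0.242, 1.75 and 5.92 CPM in Q140 x Msh3+/- mice. In Q140 mice these were 0.481, 3.18 and 4.88 CPM, in Msh3-/- mice 0.187, 2.59 and 5.96, in Msh3+/- mice 0.0738, 3.68 and 7.78, and in WT mice 0.148, 1.94 and 10.7 CPM. The ranges overlapped in all 15 pairs of groups. WT held the highest mean of Hbb-bs, 4.21 ± 4.25 CPM (SD, n = 7), but the second lowest median, since 3 of its 4 males lay at 5.60, 8.94 and 10.7 CPM and its other 4 mice between 0.148 and 1.94.

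Hba-a1, which gives most alpha globin reads here, had a lowest, median and highest level of 0.187, 0.994 and 1.98 CPM in Q140 x Msh3-/- mice, of 0.0441, 0.486 and 1.54 in Q140 x Msh3+/- mice and of 0.121, 1.01 and 1.72 in Q140 mice. It had 0.0233, 0.821 and 1.63 CPM in Msh3-/- mice, 0, 1.12 and 2.35 in Msh3+/- mice and 0.127, 0.450 and 3.51 in WT mice. The order of its medians was Msh3+/-, Q140, Q140 x Msh3-/-, Msh3-/-, Q140 x Msh3+/- and WT, and every neighbour in that order overlapped in range. Hba-a2, its near copy, had its highest group median in Msh3+/- mice, at 0.457 CPM, and its lowest in WT, at 0.118 CPM. Hbb-bt, the beta gene with fewer counted reads, had its highest in Msh3+/- mice, at 0.377 CPM, and its lowest in WT, at 0.124 CPM. Both had their highest mouse in WT, at 1.26 and 1.08 CPM.

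Alas2, the least abundant of the 5 genes, had a single group median apart from the others. Its lowest, median and highest level was 0.0209, 0.0883 and 0.297 CPM in Q140 x Msh3-/- mice, 0, 0.0649 and 0.260 in Q140 x Msh3+/- mice and 0.0219, 0.0603 and 0.316 in Q140 mice. It was 0.0223, 0.0709 and 0.258 CPM in Msh3-/- mice, 0, 0.233 and 0.432 in Msh3+/- mice and 0.0230, 0.0618 and 0.569 in WT mice. The Msh3+/- median was the highest and the next was that of Q140 x Msh3-/- mice, but the Msh3+/- range overlapped that of every other group, and the values rest on 0 to 37 reads per library.

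None of the 5 genes passed an adjusted p of 0.05 in any of the 7 comparisons between genotype groups or the 2 differences between Q140 effects, by edgeR's quasi-likelihood test, DESeq2 or limma with voom weights. The share of all tested genes that edgeR called was 0.01% for Q140 against WT, 0.015% for Q140 x Msh3+/- against Msh3+/- and 0% for Q140 x Msh3-/- against Msh3-/-. It was 0.025% for Msh3+/- against WT, 0.035% for Msh3-/- against WT, 0.02% for Q140 x Msh3+/- against Q140, 0.045% for Q140 x Msh3-/- against Q140, and 0% for both differences. With DESeq2 these shares ran between 0% and 0.081%, among them 0.0612% for Q140 x Msh3-/- against Q140, and with voom between 0% and 0.07%. With shares this low, a count of 0 of 5 says little about these genes. An unadjusted p under 0.05 was reached by 1 of the 5 genes with edgeR, Alas2 between Q140 x Msh3+/- and Msh3+/- mice, by 1 gene with DESeq2 in that comparison, and by 0 genes with voom. Shares of all genes at that unadjusted threshold are not given here.

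The log2 fold changes and their intervals show how large a difference the data leave room for. Hbb-bs differed by -0.42 ± 0.61 between Q140 and WT (SE; 95% interval -1.65 to 0.81; adjusted p = 0.967). Between Q140 x Msh3+/- and Msh3+/- mice it differed by -0.57 ± 0.59 (interval -1.75 to 0.61, adjusted p = 0.878), and between Q140 x Msh3-/- and Msh3-/- mice by 0.47 ± 0.60 (interval -0.74 to 1.68, adjusted p = 0.892). All 5 genes lay below 0 in the first of these Msh3 comparisons, with a median of -0.88, and all 5 lay above 0 in the second, with a median of 0.26. Over all 20010 genes these medians were -0.003 and -0.003. Alas2 differed by -1.28 ± 0.57 between Q140 x Msh3+/- and Msh3+/- mice (edgeR adjusted p = 0.78). Since the 5 genes vary together over mice, their common sign does not count as 5 observations. Without the Htt allele, Hbb-bs differed by 0.07 ± 0.59 between Msh3+/- and WT and by -0.44 ± 0.61 between Msh3-/- and WT. In Q140 mice it differed by -0.07 ± 0.61 for Q140 x Msh3+/- against Q140 and by 0.45 ± 0.60 for Q140 x Msh3-/- against Q140. Comparisons that share a group share its mice, so these values are not independent. The Q140 effect on Hbb-bs in Msh3-/- mice differed from that in WT by 0.89 ± 0.86 (adjusted p = 0.965), and that in Msh3+/- mice by -0.15 ± 0.85 (adjusted p = 0.981).

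Leaving out WT male 3 moved the comparisons with WT and turned the sign of several values. Without that mouse, Hbb-bs was -0.079 for Q140 against WT, against -0.42 with it, and Alas2 was -0.033, against -0.70 with it. For Msh3-/- against WT, Hbb-bs was -0.103 without it, against -0.44 with it, and Alas2 -0.062, against -0.72 with it. For Msh3+/- against WT, Hbb-bs was 0.405 without it, against 0.07 with it, and Alas2 1.027, against 0.38 with it. The difference between Q140 effects on Hbb-bs was 0.547 without it in Msh3-/- against WT, beside 0.89 with it, and -0.483 in Msh3+/- against WT, beside -0.15. Hbb-bt between Q140 and WT mice was 0.289 without that mouse, against -0.14 with it, and Hba-a1 was 0.127, against -0.29 with it. Between Msh3-/- and WT mice, Hba-a2 was 0.468 without that mouse, against -0.07 with it, and Hbb-bt was 0.3, against -0.13 with it. None of these values passed in either form.

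Markers of the choroid plexus, a tissue of the ventricles, were set beside the same comparisons. Of 11 listed genes 8 were tested, and their summed level had a median of 6.65 to 10.2 CPM in the 6 groups. It reached 1250 CPM in Msh3-/- female 4, 126 CPM in 1 other female of that group and 392 CPM in WT male 3, the mouse with the highest globin level, and at most 15.6 CPM in any other mouse. Msh3-/- female 4 had 0.187 CPM of Hbb-bs and WT male 3 had 10.7. All 8 genes lay below 0 for Q140 x Msh3-/- against Msh3-/- (median log2 value -2.25), for Q140 against WT (-1.29), for Msh3+/- against WT (-1.31) and for male against female (-0.56), and all 8 lay above 0 for Msh3-/- against WT (0.97). edgeR and voom called 0 of the 8 in the genotype comparisons, with an unadjusted p under 0.05 in 21 and 3 of 72 tests. No share of all genes at that unadjusted threshold is given here, so these 2 counts are only a description. DESeq2 called 2, among them Ttr, the carrier transthyretin, at -4.96 for Q140 x Msh3-/- against Msh3-/- (adjusted p = 0.00245) and at -5.08 for Msh3+/- against WT (adjusted p = 0.000616), where it called 0.025% and 0.065% of all genes. Beyond the values without WT male 3, the part of this tissue in the globin values was not tested.

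**Figure D2:**
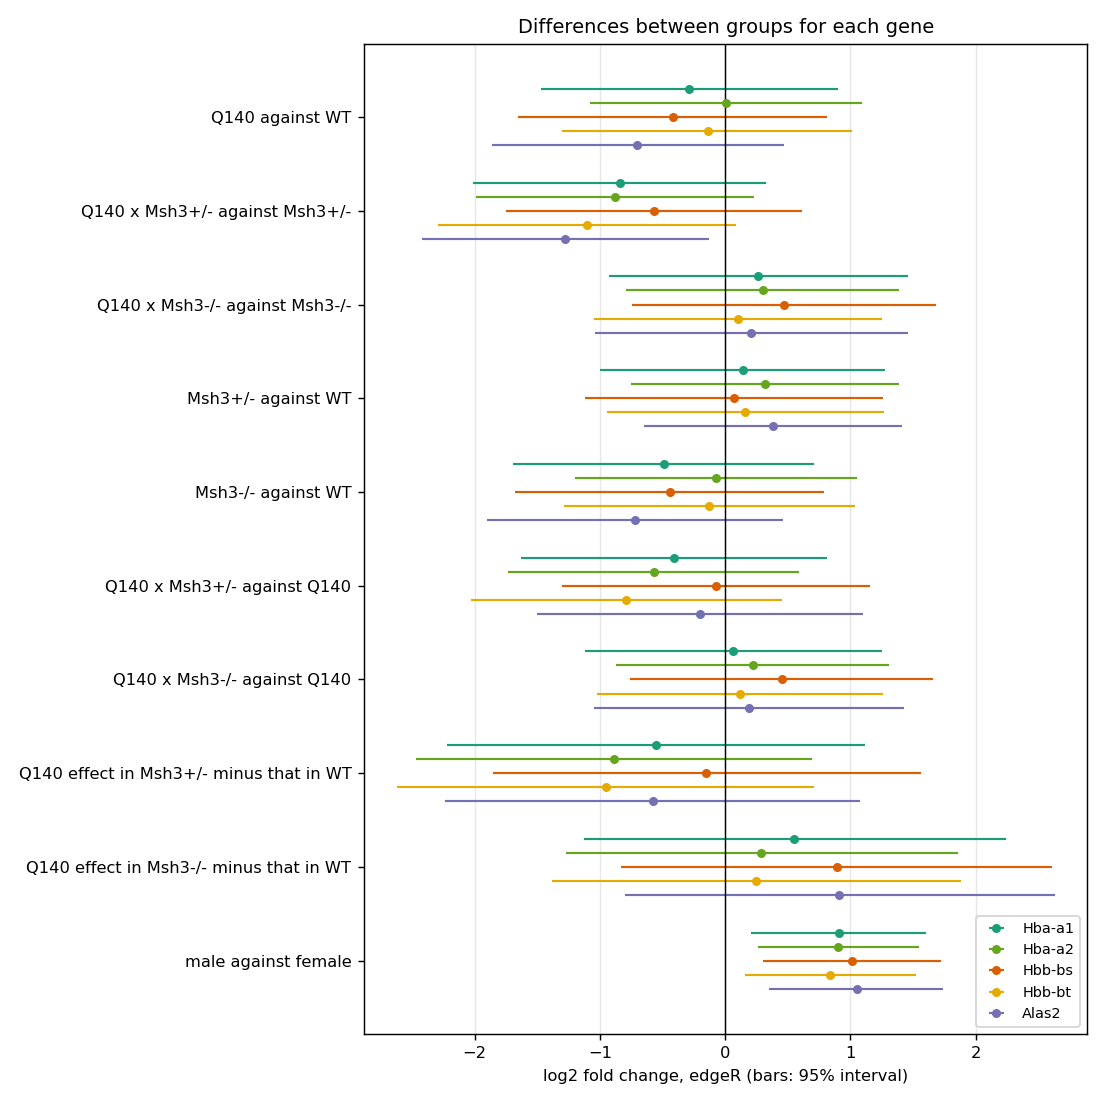
Log2 fold change of each gene (colour) in the 10 comparisons (vertical axis), as points with 95% intervals on a horizontal log2 axis, from edgeR over all 48 mice with sex in the model. Every interval of the genotype comparisons reaches 0 except that of Alas2 between Q140 x Msh3+/- and Msh3+/- mice (-2.42 to -0.13), and all 5 intervals for male against female lie above 0.

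Between the sexes, fitted levels in males were 1.79 to 2.06 times those in females over the 5 genes, and none of the 5 passed correction over all genes. Hbb-bs had a lowest, median and highest level of 0.148, 4.86 and 10.7 CPM in 24 males, and of 0.0738, 1.75 and 8.15 CPM in 24 females. The ranges overlapped, and 18 of 24 males lay above the female median. The fold change was 2.02, with a log2 value of 1.01 ± 0.35 (interval 0.30 to 1.72, adjusted p = 0.0783). The other log2 values were 0.91 ± 0.35 for Hba-a1 (adjusted p = 0.11), 0.90 ± 0.32 for Hba-a2 (0.0839), 0.84 ± 0.34 for Hbb-bt (0.134) and 1.05 ± 0.35 for Alas2 (0.0606). edgeR called 0 of the 5 genes, beside 5.56% of all tested genes. The unadjusted p was under 0.05 for 5 of 5 with edgeR, DESeq2, voom and limma on log2 FPKM. Since the 5 genes vary together over mice and each method used the same mice, this does not count as 5 observations. The share of all genes with an unadjusted p under 0.05 is not given here.

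The male median exceeded the female median in 6 of 6 genotype groups for each of the 4 globin genes, and in 4 of 6 for Alas2. How many of all tested genes have the same sign in 6 of 6 groups is not given here. In Q140 x Msh3-/- mice the male and female medians of Hbb-bs were 4.80 and 2.19 CPM, in Q140 x Msh3+/- 3.48 and 1.75 CPM, and in Q140 4.42 and 1.35 CPM. In Msh3-/- mice they were 3.44 and 1.68 CPM, in Msh3+/- 5.24 and 2.60 CPM, and in WT 7.27 and 1.16 CPM. For Hbb-bt the male and female medians were close in Q140 x Msh3+/- mice, at 0.156 and 0.135 CPM, and far apart in WT mice, at 0.671 and 0.118 CPM. Each of these medians rests on 3 to 5 mice, and the 4 globin genes, which vary together, do not count as 4 observations. Without WT male 3 the log2 value of Hbb-bs between males and females was 0.951 (adjusted p = 0.103).

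The labels give the well of each library on a plate. With the plate column as a factor, Alas2 passed for male against female at a log2 value of 1.2 (edgeR adjusted p = 0.0437), beside 5.01% of all tested genes called in that model, and the log2 values of the 4 globin genes lay between 0.959 and 1.111 (adjusted p from 0.123 to 0.141). The 6 columns held 8 mice each, of which 3 to 6 were male. The median of Hbb-bs was 3.72, 1.89, 3.36, 3.48, 3.10 and 3.57 CPM in columns 1 to 6, with overlapping ranges. The part of the plate in the difference between sexes was otherwise not tested.

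The 5 genes covaried closely over the 48 mice. Between Hbb-bs and Hba-a1, which lie on different chromosomes and whose coding sequences share no run longer than 14 bases, Pearson's r of log2 CPM was 0.966 and Spearman's rho 0.957. The near copies gave r = 0.900 for Hba-a1 with Hba-a2 and r = 0.918 for Hbb-bs with Hbb-bt, to which reads assigned to the wrong copy can add. Across chromosomes, r was 0.931 for Hba-a1 with Hbb-bt, 0.878 for Hba-a2 with Hbb-bs and 0.873 for Hba-a2 with Hbb-bt. Alas2 gave r from 0.794 to 0.803 with the 4 globin genes. All 10 pairs had a permutation p of 1e-05, the smallest that 100000 permutations can give, and an adjusted p of 1e-05 over the 10 pairs. Without the 2 mice farthest from the median, r lay between 0.770 and 0.960, and on deviations from the genotype and sex means between 0.793 and 0.964.

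**Figure D3:**
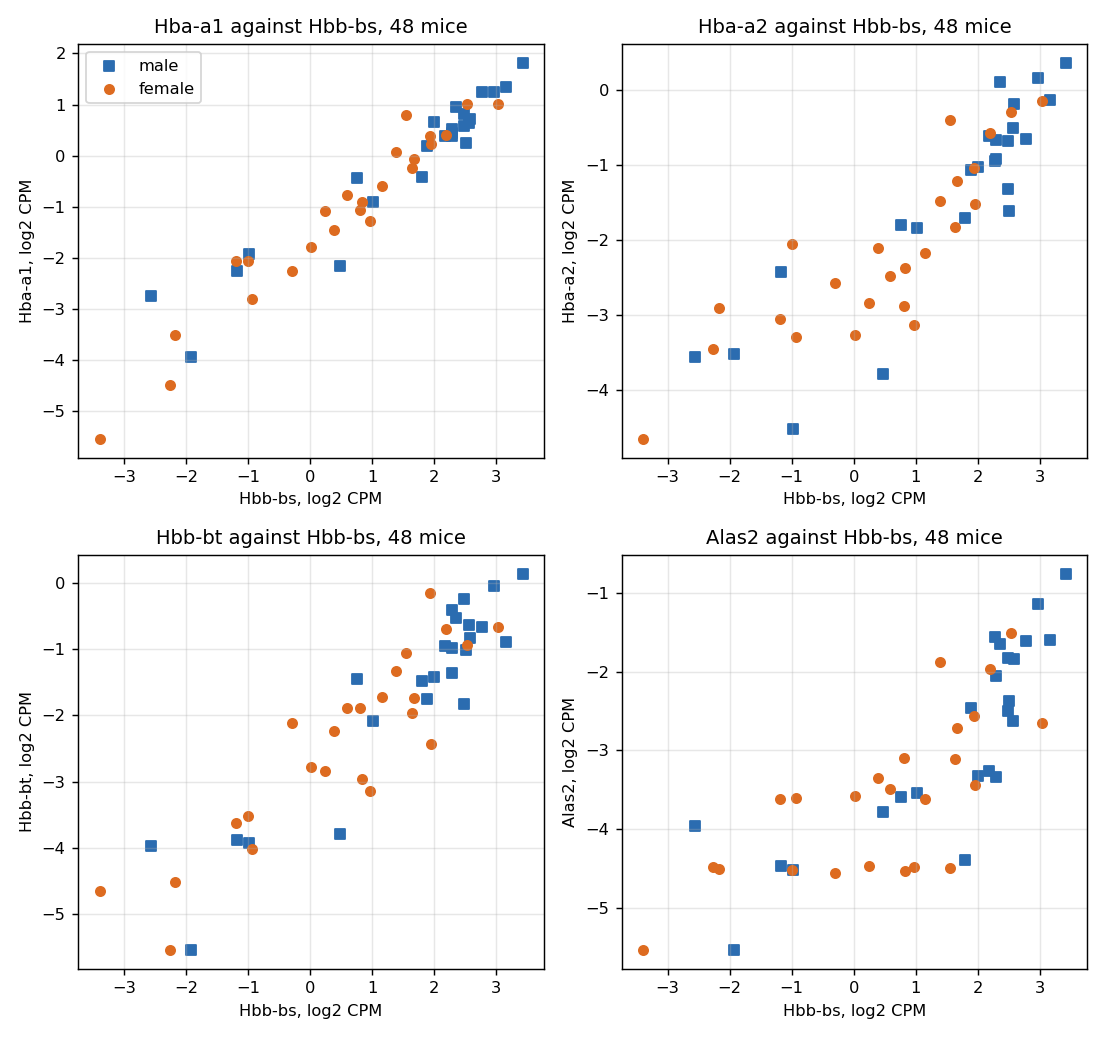
Level of Hba-a1, Hba-a2, Hbb-bt and Alas2 (vertical axes) against Hbb-bs (horizontal axes) in each of 48 mice, as log2 CPM with a prior count of 1, males as blue squares and females as orange circles. The points follow a line in all panels, closest for Hba-a1 (r = 0.966), and the flat rows at the foot of the Alas2 panel are mice with 0 or 1 read.

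Set against counting error, the proportions between the genes varied less than their amount. Alpha genes gave 3136 of the 11323 globin reads, or 27.7% (exact binomial 95% interval 26.9 to 28.5%), and group values ran between 25.7% in Q140 x Msh3+/- and 29.2% in Q140 mice. Hba-a2 gave 883 of 3136 alpha reads, or 28.2% (26.6 to 29.8%), from 31.6% in Q140 x Msh3-/- to 24.7% in WT mice. Hbb-bt gave 770 of 8187 beta reads, or 9.41% (8.78 to 10.1%), from 10.9% in Msh3-/- to 7.06% in Q140 x Msh3+/- mice. Alas2 gave 297 of the 7714 reads of Alas2 and Hbb-bs, or 3.85% (3.43 to 4.30%). Over mice, chi-square over degrees of freedom was 2.27 for the alpha share, 1.22 for Hba-a2, 2.17 for Hbb-bt and 1.55 for Alas2, beside 6.15 for the amount of Alas2 and 104 for that of Hbb-bs. This measure grows with the number of reads. In single mice with at least 100 reads of the whole in question, the alpha share ran between 19.2 and 42.1% (34 mice), the Hba-a2 share between 20.6 and 35.3% (10 mice), the Hbb-bt share between 4.07 and 18.8% (29 mice) and the Alas2 share between 0.746 and 8.82% (27 mice). These intervals cover counting error only, and not how reads that match both copies of a pair were handled.

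Beyond the 5 genes, the likeness to Hbb-bs was weak. Over 20005 other tested genes, r with Hbb-bs had a median of 0.002 and a central 95% range of -0.294 to 0.294. Their values lay between -0.505 and 0.573, 4 genes exceeded 0.5 and 0 exceeded 0.6, whereas the other 4 globin and Alas2 values began at 0.799. With the mean standardised level of the 5 genes, high values of r were 0.509 for Tbc1d25, 0.497 for Ncapg2, a subunit of condensin II, 0.494 for Tmem116 and 0.489 for Fndc7. Stx3, a membrane fusion protein, Slc25a28 (mitoferrin 2), a mitochondrial iron importer, Abcb4, a phospholipid transporter, H2-Q5, a class I histocompatibility gene, and RP23-248P8.1 gave 0.466, 0.449, 0.447, 0.441 and 0.463. On deviations from genotype and sex means these values lay between 0.369 and 0.485. The lowest, with gene models left out, were -0.542 for Arhgap19, -0.477 for Heatr5a and -0.461 for Tmem161a. These are descriptions of values near the ends of a list of 20005 over the same 48 mice and carry no test.

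**Figure D4:**
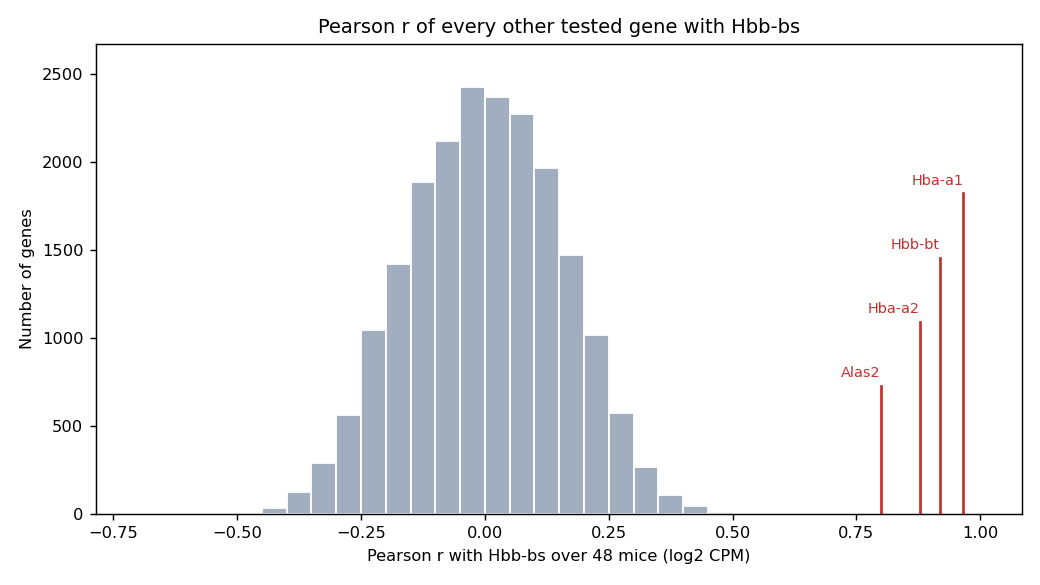
Number of genes (vertical axis) by Pearson r with Hbb-bs over 48 mice (horizontal axis) for the 20005 tested genes outside the 5, as grey bars, with the r of the other 4 genes as red lines whose height has no meaning. The highest of the 20005 values is 0.573, where bars are too short to see, and the red lines stand between 0.799 and 0.966.

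Other genes of red cells had few reads or an r with Hbb-bs near 0. Of 39 other erythroid genes listed, 38 were matched, 18 passed the filter and 20 did not. Slc4a1, the anion exchanger of the red cell membrane, had 88 reads over all libraries, spread over 39 mice. The membrane gene Epb42 had 20 reads, and Gata1, an erythroid transcription factor, had 1. The embryonic globin genes Hba-x and Hbb-bh1, Hbb-bh2 and the Rhesus-associated gene Rhag had 0 reads in every mouse, and the embryonic gene Hbb-y had 56 reads over 30 mice. Klf1, a transcription factor that acts on the adult beta globin gene, had 289 reads over all 48 mice.

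Among the erythroid genes that passed the filter, Tmcc2 was abundant, with a mean of 29.7 FPKM (r with Hbb-bs -0.157). The highest r in the list were 0.21 for Epor, the erythropoietin receptor, 0.158 for Ermap and 0.118 for Fam46c. The mean of the 18 tested genes had r = -0.049 with Hbb-bs (permutation p = 0.744, adjusted p = 0.791 over 17 relations). edgeR called 0 of the 18 in any comparison, as did DESeq2 and voom. Its unadjusted p was under 0.05 in 12 of 162 tests over the genotype comparisons and for 3 of the 18 genes between sexes. Without the share of all genes at that unadjusted threshold, which is not given here, these counts cannot be read as high or low.

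No relation of Hbb-bs with the mean of the haem synthesis genes or of the iron handling genes passed, and the r of single genes carry no test. All 11 haem synthesis genes were tested, and their mean gave r = 0.204 (adjusted p = 0.562), with Ppox at 0.265 and Abcb10 at 0.236. Tmem14c and Fech, the enzyme that inserts iron into haem, were the most abundant at 23.7 and 20.9 FPKM. Alas1, the form of the enzyme used outside red cells, averaged 12.6 FPKM, against 0.0536 FPKM for Alas2, and its r with Hbb-bs was 0.014. Of 23 genes of haem and iron handling, 20 were tested, and their mean gave r = -0.019 (adjusted p = 0.901). Fth1 and Ftl1, the ferritin chains, averaged 1170 and 58.3 FPKM with r = -0.176 and -0.098. Hpx, the plasma haem scavenger haemopexin, had the highest r of that list at 0.281, followed by Aco1 at 0.218 and Ireb2 at 0.185. edgeR called 0 genes of these lists in any comparison. Its unadjusted p was under 0.05 in 5 of 99 and 12 of 180 tests over the genotype comparisons and for 1 of 11 and 5 of 20 genes between sexes. These unadjusted counts also lack the share of all genes beside them and are given as a description. For male against female, DESeq2 called 1 of the 20 iron handling genes (Trf, transferrin), beside 7.78% of all genes, and voom called 2 (Trf and Cygb, cytoglobin), beside 7.07%. Both shares are near those of all genes.

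Markers of other blood cells and of vessels were set beside the globin levels. Neutrophil genes were scarce: 14 of 16 did not pass the filter, and S100a8 and S100a9 had 101 and 136 reads over all mice. The means of the tested genes gave r = 0.119 for neutrophils (2 genes), 0.241 for platelets (6 genes), 0.231 for lymphocytes (8 genes) and -0.256 for monocytes (5 genes), with adjusted p of 0.664, 0.491, 0.491 and 0.491. Endothelial genes gave -0.087, pericyte and smooth muscle genes 0.118, and meningeal and perivascular fibroblast genes -0.117. Choroid plexus genes gave -0.140, and -0.275 without WT male 3. Microglia gave 0.059, astrocytes -0.117, oligodendrocytes -0.058, cortical neurons 0.119, hypoxia response genes -0.242 and the library total -0.064. None of the 17 relations passed, and the lowest adjusted p was 0.491. Spearman's rho lay between -0.26 and 0.31, the highest for platelets (permutation p = 0.0345, adjusted p = 0.557). Without the 2 mice farthest from the median of each mean, r lay between -0.221 for endothelial genes and 0.275 for pericyte and smooth muscle genes. Part of these lists is also expressed by brain cells, so their means do not measure blood alone.

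Among the 173 distinct listed genes tested, edgeR called 5, each for male against female. That is 2.89%, below the 5.56% called among all tested genes in that comparison, and is given as a description. Vwf, the von Willebrand factor of endothelial cells and platelets, was lower in males by a log2 value of -0.25 ± 0.07 (adjusted p = 0.0186), opposite in sign to the globin genes. The astrocyte genes Aldh1l1 and S100b were lower by -0.11 ± 0.03 and -0.10 ± 0.02, and the astrocyte gap junction gene Gja1 and the neuronal glutamate transporter gene Slc17a7 were each higher by 0.08 ± 0.02. Their part in the globin values was not tested.

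**Figure D5:**
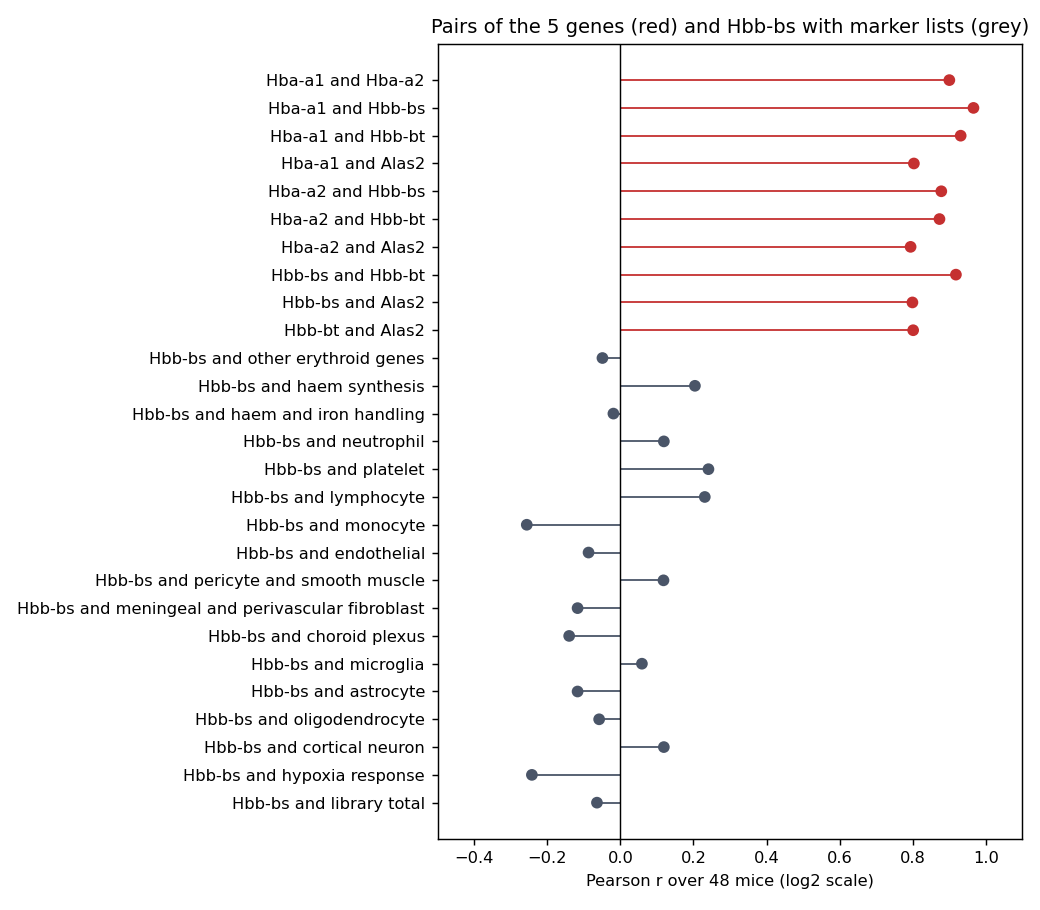
Pearson r over 48 mice (horizontal axis) for the 10 pairs of the 5 genes in red and for Hbb-bs with the mean level of each of 16 marker lists and with the library total in grey. The pairs lie between 0.794 and 0.966, and the lists between -0.256 and 0.241.

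The names of the libraries share stems, whose meaning the labels do not give. For Hbb-bs, the median absolute log2 difference was 1.64 over 28 pairs that share a stem and 1.52 over 1100 other pairs. The 4 mice of 1 stem alone spanned 0.0738 to 8.15 CPM.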

How the data were processed

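Per the labels, a Qiagen RNeasy kit gave the RNA of cortex taken at 6 months, and TruSeq stranded libraries were sequenced. Listed in the submitters' processing notes are HTSeq 0.12.3, SAMtools 1.10, STAR 2.7.5c and the build GRCm38 (mm10). The read length, strand setting and treatment of reads shared by near copies are not given in the sources used here. The deposited counts are whole-number read counts per gene made by the authors, and the deposited FPKM values are the authors' scaling of the same genes by length and library total.

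The counts were tested with edgeR 4.0.16 under R 4.3.3. The function filterByExpr on genotype kept 20010 genes, removed 28785 and kept 99.963% of reads. TMM factors and a quasi-likelihood model of genotype and sex over 48 mice followed, with Benjamini-Hochberg adjustment over all kept genes and a call at 0.05. CPM uses TMM-scaled totals, and log2 CPM a prior count of 1. Correlations used 100000 permutations, two-sided. On counts simulated for Q140 against WT over 19881 genes, with 200 changed, the test recovered 78, 90, 100 and 100% of genes changed by 1.5, 2, 4 and 8-fold. Most of those genes vary far less than the 5 genes, so these shares do not apply to the 5. Alternatives were RLE factors, no filter, a stricter filter, DESeq2 1.42.0, limma 3.58.1 with voom weights or on log2 FPKM plus 0.1 or 1, a replicate block, a plate column factor, a random block for the stem of the library name, and leaving out 3 libraries that stand apart. The fit without WT male 3 was chosen after seeing the data.

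The 5 genes, the 16 marker lists, the tests and the other alternatives were chosen with earlier results of these data known. Named from the lists were any called gene, the 2 most abundant of a list and, for the erythroid and haem lists, the 3 with the highest r with Hbb-bs. Also named were the 10 highest and 3 lowest genes by r with the mean of the 5. Symbols of gene models (Gm plus digits, or Rik) and accession-like symbols were left out of that ranking. Some genes that these rules choose are not reported here. Genes named for few or 0 reads, Alas1, and neutrophil genes below the filter were chosen after their values were seen. The labels say that libraries come from mice but give no animal number, so p-values measure the spread between these libraries.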

Additional observations from a re-analysis of the deposited data

Results flagged for a closer look

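Of 30 sets of values (5 genes in 6 genotype groups), 1 held a mouse flagged as apart from the others on the log2 scale. Hba-a1 in Msh3+/- mice had its lowest value, 0 CPM, in Msh3+/- female 3, and on the log2 scale the gap to the next mouse was 0.533 of the range of the group, above the Dixon limit of 0.493 for 9 mice. The log2 level of a count of 0 is set by the prior count of 1, so the size of this gap depends on that setting. Whether the flag holds with another prior count was not tested. The same mouse was the lowest of its group for the other 4 genes as well. Chance alone marks about 1 in 20 such sets.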

How the results depend on the processing

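No gene of the 5 was called in a genotype comparison under any alternative. With the plate column as a factor 1 of the 5 genes was called for male against female (Alas2), beside 0 without it, in a model that called 1003 of 20010 genes. In all, 521 alternative values of single genes kept their sign and their side of the threshold and 43 turned sign, none of them called with or without the alternative. With voom weights the sign turned for Hbb-bt (0.067) for Q140 against WT, Hba-a1 (-0.304), Hbb-bs (-0.141) and Hbb-bt (-0.003) for Msh3+/- against WT, Hba-a2 (0.055) for Msh3-/- against WT, Hba-a1 (-0.368), Hba-a2 (-0.105), Hbb-bs (-0.28) and Hbb-bt (-0.147) for Q140 x Msh3-/- against Q140, and Hba-a2 (-0.16) for Q140 effect in Msh3-/- minus that in WT. With limma on log2 FPKM plus 0.1 it turned for Hba-a1 (0.026), Hbb-bs (0.084) and Hbb-bt (0.139) for Q140 against WT, Hba-a2 (0.271) for Msh3-/- against WT, Hba-a1 (-0.013) for Q140 x Msh3-/- against Q140, and Hba-a2 (-0.162) for Q140 effect in Msh3-/- minus that in WT. With a random block for the stem it turned for Hbb-bs (0.185) and Hbb-bt (0.191) for Q140 against WT, Hba-a1 (-0.196) and Hbb-bs (-0.036) for Msh3+/- against WT, Hba-a2 (0.156) for Msh3-/- against WT, Hba-a1 (-0.173) and Hbb-bs (-0.102) for Q140 x Msh3-/- against Q140, and Hba-a2 (-0.112) for Q140 effect in Msh3-/- minus that in WT. Without WT male 3 it turned for Hba-a1 (0.127) and Hbb-bt (0.289) for Q140 against WT, Hba-a2 (0.468) and Hbb-bt (0.3) for Msh3-/- against WT, and Hba-a2 (-0.247) and Hbb-bt (-0.184) for Q140 effect in Msh3-/- minus that in WT. With the plate column as a factor it turned for Hba-a1 (-0.027), Hbb-bs (-0.108) and Alas2 (-0.18) for Q140 x Msh3-/- against Msh3-/-, Alas2 (0.125) for Q140 x Msh3+/- against Q140, Hba-a1 (-0.272), Hbb-bs (-0.074) and Hbb-bt (-0.073) for Q140 x Msh3-/- against Q140, and Hbb-bs (-0.007) for Q140 effect in Msh3-/- minus that in WT. Without the 3 libraries that stand apart it turned for Hbb-bs (-0.007) for Msh3+/- against WT. With DESeq2 it turned for Hba-a2 (0.079) and Hbb-bt (0.014) for Msh3-/- against WT. With limma on log2 FPKM plus 1 it turned for Hba-a2 (0.028) for Msh3-/- against WT. All 60 alternative values of the pairs of genes stayed positive and past the threshold. Of the alternative values for the marker lists, none past the threshold, 94 kept their sign and 8 turned. On deviations from genotype and sex means these were haem and iron handling (0.128), endothelial (0.031), astrocyte (0.01), other erythroid (0.006) and oligodendrocyte genes (0.002). Haem and iron handling also gave 0.093 on log2 FPKM plus 0.1 and 0.02 on deviations from plate column means, and other erythroid genes gave 0.031 without the 3 libraries. Without the 2 farthest mice, other erythroid (0.067), oligodendrocyte (0.026) and fibroblast genes (0.0135) also turned, and Spearman's rho for other erythroid genes was 0.037. The cause of these turns was not tested.

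The replicate numbers did not pair the mice: over 115 pairs of the same sex and number in different groups, the mean r of deviations was -0.028 (-0.427 to 0.286), beside 0.004 for 844 other pairs. With the replicate block no gene of the 5 was called in any genotype comparison, and Hbb-bs for Q140 x Msh3+/- against Q140 turned to 0.017. Low read counts limit Alas2, Hbb-bt and Hba-a2 most.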

Other observations

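Some erythroid genes below the filter on low counts still had reads in most mice. They are named here after their values were seen. Ube2c, a cell cycle ubiquitin enzyme placed in the erythroid list, had 221 reads over 47 mice, and Hbq1b, a theta globin gene, had 205 reads over 47 mice. Rhd had 103 reads over 39 mice, and Trim58, a ubiquitin ligase of late erythroblasts, had 80 reads over 36 mice. None had more than 13 reads in a mouse.

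Abundant genes of the blood, vessel, choroid plexus and microglia lists had r with Hbb-bs between -0.239 (Kcnj13) and 0.247 (Itm2a) over 48 mice. Ighm, the immunoglobulin heavy chain of B cells, ranged from 608 to 2836 reads per library with r = 0.119, and Trbc2, a T cell receptor chain, gave r = 0.05. The vessel genes Slc2a1, the glucose transporter, and Itm2a gave -0.191 and 0.247, and the mural cell genes Rgs5 and Vtn gave 0.054 and -0.02. Fn1 and Vcan, from the monocyte list, gave -0.22 and -0.154, and Igf2 of fibroblasts gave -0.216. Ttr and Kcnj13 of the choroid plexus gave -0.127 and -0.239, and Ttr ranged from 31 to 46838 reads. C1qa of microglia gave -0.025, Csf3r and Mmp9 of neutrophils gave -0.075 and 0.206, and Gp1bb and Itgb3 of platelets gave -0.023 and 0.141.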
